A study of Mus musculus with 4 samples.

Results

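Steroidogenic genes are the genes through which Leydig cells, the hormone-producing cells between the seminiferous tubules of the testis, make testosterone. A set of 10 genes was chosen by name: Cyp11a1, Cyp17a1, Star, Hsd3b1, Hsd3b6, Hsd17b3, Insl3, Lhcgr, Nr5a1 and Fdx1. Of these, Insl3 encodes a peptide hormone of Leydig cells and is not itself steroidogenic. Of the 31600 features in the deposited table, 9 carried one of these 10 symbols, and Insl3 was not analysed here. The libraries are labelled as mouse spermatogonial stem cells, which renew the male germline. There were 2 libraries labelled differentiation and 2 labelled control, and the control libraries carry the genotype label WT. The genotype field of the other libraries holds only the word Differentiation, and no strain, age, agent or time is given in the sources used here. Nothing in the labels tells if replicates are separate cultures or animals, so p-values measure only the spread between these libraries, which may be technical.

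Testosterone is made from cholesterol in a chain of steps. STAR brings cholesterol into mitochondria, where CYP11A1, fed with electrons by ferredoxin (Fdx1), cuts its side chain to give pregnenolone. The 3-beta-hydroxysteroid dehydrogenases (Hsd3b1, Hsd3b6), CYP17A1 and HSD17B3 then carry pregnenolone to testosterone. Luteinizing hormone, acting through its receptor LHCGR and cyclic AMP, drives this chain, and the nuclear receptor NR5A1 (SF-1) activates many of its genes. Several of them are not particular to Leydig cells: adrenal cortex and ovary use the early steps, Sertoli cells express Nr5a1, and Fdx1 is found in most tissues.

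In the differentiation libraries, Cyp11a1, Hsd3b1, Fdx1 and Nr5a1 fell and Star rose. The size of the decrease differed widely, with Hsd3b1 at 0.0693 times its control mean, Cyp11a1 at 0.147 times, Fdx1 at 0.528 times and Nr5a1 at 0.618 times. Star stood at 1.72 times its control mean. Cyp17a1 was low in all libraries and did not pass the test. Hsd3b6, Hsd17b3 and Lhcgr were too low in FPKM to be tested, and Hsd3b6 and Hsd17b3 rest on few fragments. Levels are in FPKM, which divides a gene's fragments by its exon length and the depth. The depth that turned FPKM into whole fragments was 17772005 and 20363284 for the differentiation libraries and 19461725 and 20650241 for the control libraries.

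A gene was tested when its mean over the 4 libraries was at least 0.5 FPKM, and 6 of the 9 genes were. The test was limma on log2(FPKM + 1), fitted on all 23138 features that met this minimum and adjusted over all of them by Benjamini-Hochberg, with a threshold of 0.05. It called 4 of the 6 lower and 1 higher in differentiation. Of all tested features, 27% were called lower, 29.6% were called higher and 56.6% were called in either direction, so a call by itself was common in this comparison. The balance turned with the scaling: 6848 features were called higher and 6246 lower here, against 6064 and 7266 after median centring and 5792 and 7601 after quantile normalization. Decreases as large as the 2 strongest here were not common. A log2 fold change at or under -2 was met by 60 tested features, 0.259% of them, which included Hsd3b1 and Cyp11a1. Increases of that size were not counted, though some occurred, such as Insl6 at 2.71.

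**Figure D1:**
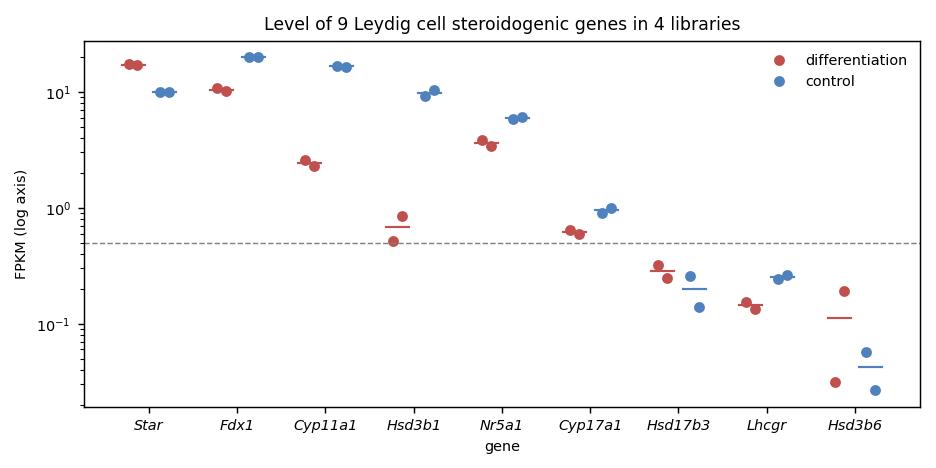
FPKM (log axis) of 9 steroidogenic genes, with differentiation libraries in red and control libraries in blue; each point is a library, the short line is the group mean and the dashed line is the minimum mean of 0.5 FPKM. Star is the gene with the highest FPKM in both differentiation libraries and Fdx1 in both control libraries, an order that depends on the exon lengths used. Hsd3b6, Hsd17b3 and Lhcgr lie under 0.5 FPKM in every library.

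Promoter sequence was available from RefSeq (build GRCm38.p6) for 7 of the 10 genes in 8 windows, each of 300 bases from 250 before to 50 after an annotated start, read along the gene's strand. Windows of Hsd3b1, Cyp11a1 and Fdx1 are shown because these 3 genes fell. Capitals mark TCAAGG or its reverse complement CCTTGA, the first letters of the element that NR5A1 is known to bind. For Cyp11a1 the window that holds a match is shown, and its other window, with no match, is left out. The Cyp11a1 match and the later Hsd3b1 match lie after the annotated start, at offsets of 2 and 10 bases.

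Hsd3b1, chr3:98859745-98860044, minus strand: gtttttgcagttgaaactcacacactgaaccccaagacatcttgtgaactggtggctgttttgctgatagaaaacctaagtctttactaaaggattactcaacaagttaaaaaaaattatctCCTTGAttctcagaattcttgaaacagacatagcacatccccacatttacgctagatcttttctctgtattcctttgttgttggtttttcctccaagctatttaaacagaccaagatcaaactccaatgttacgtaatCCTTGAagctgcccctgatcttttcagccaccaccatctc
Cyp11a1, chr9:58014702-58015001, plus strand: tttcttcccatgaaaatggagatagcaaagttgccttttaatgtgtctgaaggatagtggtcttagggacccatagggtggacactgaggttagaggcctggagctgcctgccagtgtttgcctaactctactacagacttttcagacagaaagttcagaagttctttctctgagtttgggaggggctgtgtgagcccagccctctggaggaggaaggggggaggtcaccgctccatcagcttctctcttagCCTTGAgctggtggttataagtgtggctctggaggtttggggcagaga
Fdx1, chr9:51963553-51963852, minus strand: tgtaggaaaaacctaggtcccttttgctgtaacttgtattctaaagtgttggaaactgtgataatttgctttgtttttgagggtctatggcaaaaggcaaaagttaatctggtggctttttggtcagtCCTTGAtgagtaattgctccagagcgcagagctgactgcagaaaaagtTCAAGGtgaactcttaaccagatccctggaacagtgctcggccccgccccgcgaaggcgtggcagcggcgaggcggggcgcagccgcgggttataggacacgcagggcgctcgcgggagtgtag

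TCAAGG on either strand was present in 5 of the 8 windows, those of Hsd3b1, Cyp11a1, Fdx1, Lhcgr and Insl3, and in 14.4% of all 32851 promoter windows of the same length. This motif was chosen after the sequences were seen, and a match describes letters, not a bound site. AAGGTCA, the core of the NR5A1 element, which can overlap TCAAGG, was in 0 of the 8 windows and in 4.72% of all windows. TGACG, from the cyclic AMP response element, was in 1 of the 8, a second Cyp11a1 window at chr9:57997774-57998073, and in 20.8% of all windows. The windows of Hsd17b3 and Hsd3b6 held none of the 3 motifs. No GENCODE M21 transcript held the last bases of the Fdx1, Lhcgr and second Cyp11a1 windows, and that Cyp11a1 window ends before the gene's start in GENCODE M21, so the starts differ between annotations.

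Star encodes the protein that moves cholesterol from the outer to the inner mitochondrial membrane, the acutely regulated step of steroid synthesis. It lies on GRCm38 chromosome 8 at 25806555 to 25815982. Star was at 17.3 and 17.0 FPKM in the differentiation libraries, against 9.89 and 10.1 FPKM in the control libraries. Both differentiation libraries were above both control libraries. The mean was 17.2 ± 0.210 FPKM in differentiation and 9.98 ± 0.122 FPKM in control (SD, n = 2 each), and the difference was 0.73 on the log2 scale (SE 0.04; limma adjusted p = 0.00042). These values rest on 1268 and 1428 fragments in differentiation and 792 and 855 in control, and Star was the only one of the 6 tested genes that was called higher.

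Cyp11a1 encodes the cholesterol side-chain cleavage enzyme, which commits cholesterol to steroid synthesis. It lies on chromosome 9 at 58006411 to 58027023. Cyp11a1 was at 2.60 and 2.30 FPKM in the differentiation libraries, against 16.8 and 16.4 FPKM in the control libraries. The groups were far apart compared with their spread, at 2.45 ± 0.212 FPKM in differentiation and 16.6 ± 0.278 FPKM in control (SD, n = 2 each). The log2 fold change was -2.35 (SE 0.07; limma adjusted p = 0.000146), on 222 and 225 fragments in differentiation and 1573 and 1630 in control. In bulk RNA, fewer cells of a type and less RNA per cell cannot be told apart, which holds for each gene here. Merged exons of Cyp11a1 in GENCODE M21 span 4804 bases, including a retained-intron transcript of 3439 bases, while the longest coding transcript has 2120 bases, so FPKM per merged length sets Cyp11a1 lower against other genes than the coding length would. Gm17322, a long non-coding gene on the same strand, shares 145 exonic bases with Cyp11a1 and was under 0.25 FPKM in every library.

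Fdx1 encodes ferredoxin, the small iron-sulfur protein that passes electrons to CYP11A1 and other mitochondrial P450 enzymes. It lies on chromosome 9 at 51943306 to 51963556. Fdx1 was at 10.7 and 10.2 FPKM in the differentiation libraries, against 19.8 and 19.8 FPKM in the control libraries. Both differentiation libraries were below both control libraries. The mean was 10.5 ± 0.386 FPKM in differentiation and 19.8 ± 0.00925 FPKM in control (SD, n = 2 each), and the difference was -0.86 on the log2 scale (SE 0.04; limma adjusted p = 0.000374).

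Hsd3b1 encodes a 3-beta-hydroxysteroid dehydrogenase, which converts pregnenolone to progesterone and in mouse is expressed in Leydig cells, adrenal and ovary. It lies on chromosome 3 at 98852194 to 98859794. Hsd3b1 was at 0.516 and 0.847 FPKM in the differentiation libraries, against 9.22 and 10.4 FPKM in the control libraries. The differentiation libraries held 17 and 32 fragments, against 333 and 400 in the control libraries. The log2 fold change was -2.69 (SE 0.13; limma adjusted p = 0.00042), the largest of the 6 tested genes, and the ratio of summed fragments per depth was 0.0703 (95% exact counting interval 0.0515 to 0.094). The log2(FPKM + 1) scale understates changes of low genes, and with a pseudocount of 0.1 the log2 fold change of Hsd3b1 was -3.70.

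Hsd3b6, the form known from adult mouse Leydig cells, lies near Hsd3b1 on the same strand of chromosome 3, at 98805504 to 98814443. Hsd3b6 was at 0.0312 and 0.191 FPKM in the differentiation libraries, against 0.057 and 0.0269 FPKM in the control libraries. These are 1 and 7 fragments in differentiation and 2 and 1 in control, and the groups overlap. Longest coding transcripts of Hsd3b1 and Hsd3b6 were identical at 81.2% of 1786 aligned bases, with a longest shared run of 72 bases, and 2.21% of the 50-base stretches of Hsd3b1 also occurred in another Hsd3b transcript, against 16.0% for Hsd3b6. The sources used here do not state how fragments from such shared stretches were divided between genes, so the few Hsd3b6 fragments are uncertain.

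Cyp17a1 encodes the 17-alpha-hydroxylase and 17,20-lyase that turns progesterone towards androgens, and lies on chromosome 19 at 46667165 to 46673172. Cyp17a1 was at 0.649 and 0.589 FPKM in the differentiation libraries, against 0.901 and 1.01 FPKM in the control libraries. Both differentiation values were below both control values, on 25 and 26 fragments in differentiation and 38 and 45 in control. These counts, and the counting interval below, rest on a fitted length of 2168 bases in place of the annotated 2769. The log2 fold change was -0.27 (SE 0.10; limma adjusted p = 0.0766), which missed the threshold, and the ratio of summed fragments was 0.646 (95% exact counting interval 0.447 to 0.927). It passed after median centring, after quantile normalization and without an intensity trend in the prior variance (limma adjusted p = 0.0398, 0.0356 and 0.0302), and over all alternatives the adjusted p ran between 0.0302 and 0.255. The log2 fold change was -0.55 with a pseudocount of 0.1 and -0.64 with limma-voom.

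Hsd17b3, which makes testosterone from androstenedione in the testis, was at 0.324 and 0.247 FPKM in the differentiation libraries, against 0.259 and 0.139 FPKM in the control libraries. The gene lies on chromosome 13 at 64058266 to 64089230, and its groups overlap. With 15 fragments in differentiation and 11 in control, the ratio was 1.43 (95% exact counting interval 0.616 to 3.45), so no difference was detectable at this depth.

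Lhcgr, the luteinizing hormone receptor, lies on chromosome 17 at 88716481 to 88791990. Lhcgr was at 0.154 and 0.135 FPKM in the differentiation libraries, against 0.242 and 0.266 FPKM in the control libraries. The lower values were again in differentiation, with 42 fragments there and 78 in control, a ratio of 0.566 (95% exact counting interval 0.380 to 0.835). These intervals cover counting error only. With no minimum on the level, limma gave adjusted p = 0.118 for Lhcgr, 0.358 for Hsd17b3 and 0.438 for Hsd3b6.

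Nr5a1, the nuclear receptor SF-1 of steroidogenic and Sertoli cells, lies on chromosome 2 at 38692656 to 38714542. Nr5a1 was at 3.87 and 3.43 FPKM in the differentiation libraries, against 5.80 and 6.02 FPKM in the control libraries. The groups did not overlap, and the means were 3.65 ± 0.316 FPKM in differentiation and 5.91 ± 0.151 FPKM in control (SD, n = 2 each). The log2 fold change was -0.57 (SE 0.08; limma adjusted p = 0.00541). The antisense gene Nr5a1os overlaps the Nr5a1 locus but shares no exonic base with it, and was at 0.972 and 0.849 FPKM in differentiation and 0.444 and 0.628 FPKM in control. The sources used here do not state whether counting used strand.

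**Figure D2:**
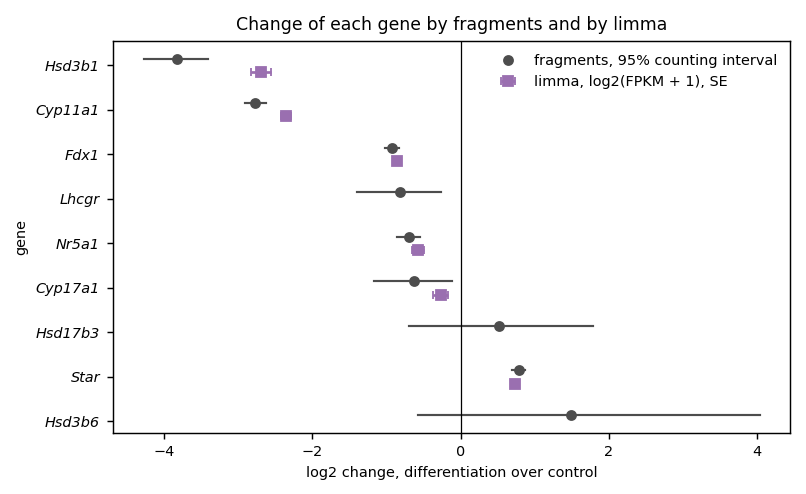
Change of each gene between differentiation and control on the log2 scale; circles give the ratio of summed fragments per depth with its 95% exact counting interval, and squares give limma's log2(FPKM + 1) fold change with its SE for the 6 tested genes. Hsd3b1 and Cyp11a1 lie furthest to the left, Star lies to the right of 0, and the intervals of Hsd17b3 and Hsd3b6 span 0.

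In 7 of the 9 genes the groups did not overlap, 6 with both differentiation libraries lower and 1 with both higher. All 6 tested genes were among these 7, as were 79.9% of all tested features. Of all 31600 features, 74.6% had groups that did not overlap and 36.1% had both differentiation libraries under both control libraries. An exact permutation test of a single gene cannot go below a two-sided p of 0.333 with 2 libraries against 2, and it gave 0.333 for these 7 genes and 0.667 for Hsd3b6 and Hsd17b3. The authors' deposited table called Cyp11a1, Hsd3b1, Star, Nr5a1 and Fdx1 at its own adjusted p under 0.05 and gave adjusted p = 0.262 for Cyp17a1, 0.468 for Lhcgr, 0.741 for Hsd17b3 and 0.579 for Hsd3b6. That table called 42.3% of all features.

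The order of the genes by FPKM differed between the groups. Within a library this order depends on the exon lengths used. Merged exons of Cyp11a1 span 4804 bases and its longest coding transcript 2120, against 3104 and 2759 for Fdx1. On coding lengths Cyp11a1 would stand higher relative to Fdx1, and the orders below could differ. In both differentiation libraries the order from the top was Star, Fdx1, Nr5a1 and Cyp11a1. In both control libraries Fdx1 was first and Cyp11a1 second. Star and Hsd3b1 changed places between the control libraries, with 9.89 and 10.1 FPKM for Star and 9.22 and 10.4 FPKM for Hsd3b1, so their levels in control did not differ beyond their spread. Cyp17a1 and Hsd3b1 likewise changed places between the differentiation libraries. At the bottom, Lhcgr, Hsd17b3 and Hsd3b6 had no fixed order, and Hsd17b3 and Hsd3b6 rest on few fragments.

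The genes did not keep a fixed proportion between the groups. The sizes of the ratios and shares below depend on the exon lengths used. Lengths were the same in all 4 libraries, so the change of a ratio between the groups does not depend on them. Star was at 6.67 and 7.41 times the FPKM of Cyp11a1 in the differentiation libraries, against 0.588 and 0.613 times in the control libraries. Fdx1 was at 4.13 and 4.44 times Cyp11a1 in differentiation, against 1.18 and 1.21 times in control. The ratio of Hsd3b1 to Cyp11a1 went the other way, at 0.198 and 0.368 in differentiation and 0.548 and 0.636 in control. Cyp17a1, at 0.250 and 0.256 of Cyp11a1 in differentiation and 0.0536 and 0.0612 in control, and Nr5a1, at 1.49 and 1.49 in differentiation and 0.345 and 0.366 in control, both gained relative to Cyp11a1. The summed FPKM of the 9 genes was 36.2 and 34.99 in the differentiation libraries, against 63.0 and 64.2 in the control libraries. Star made up 47.9% and 48.7% of that sum in differentiation, against 15.7% and 15.7% in control.

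**Figure D3:**
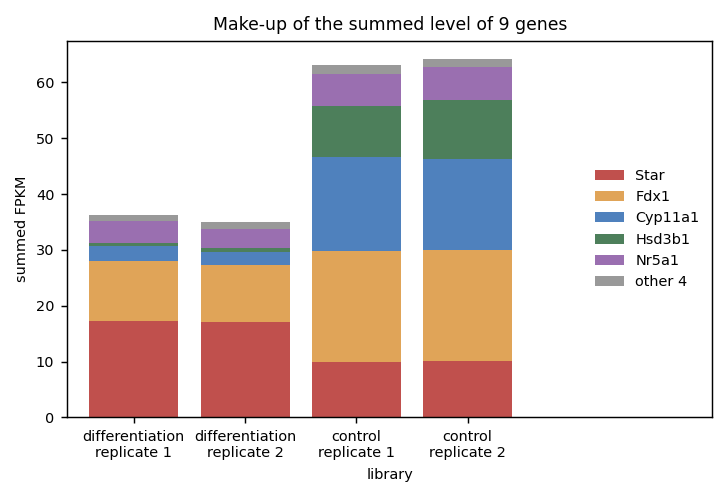
Summed FPKM of the 9 genes in each library, split by gene, with the differentiation libraries on the left. The sum is 36.2 and 34.99 FPKM in differentiation and 63.0 and 64.2 FPKM in control, and the Star segment is the tallest in differentiation while those of Cyp11a1 and Hsd3b1 are thin there.

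**Figure D4:**
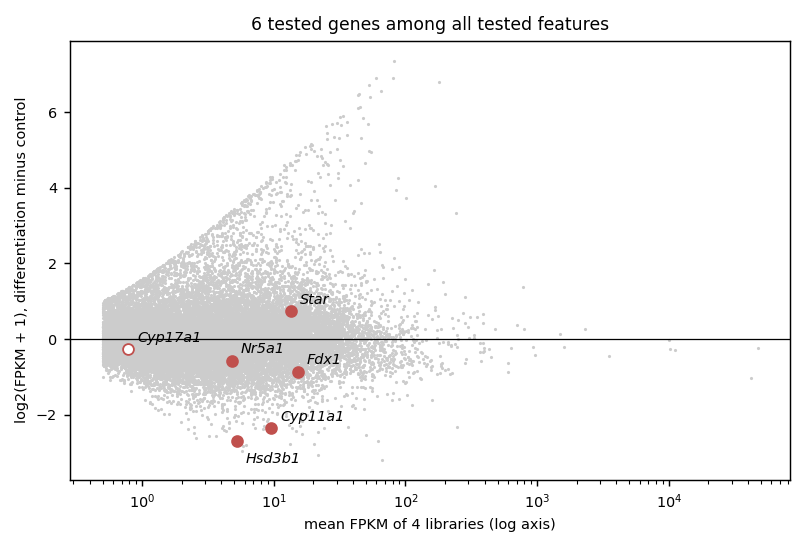
Log2(FPKM + 1) difference, differentiation minus control, against the mean FPKM of the 4 libraries (log axis) for all 23138 tested features in grey and the 6 tested steroidogenic genes in red; the open circle is Cyp17a1, which missed the threshold. Hsd3b1 and Cyp11a1 lie at the lower edge of the cloud at -2.69 and -2.35, and the other 4 lie within it.

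The wider pathway was described with 7 lists of 101 other genes, of which 88 were in the table and 76 were tested. In these, 44 genes fell and 15 rose, with a median log2 fold change of -0.37, beside a median of 0.01 over all features tested, of which 27% were called lower and 29.6% higher. Without differentiation replicate 1 or without control replicate 1, 9 of these genes were called higher in place of 15. The lists were written with earlier results of these data known. The count of each list below, marker lists included, is to be read beside these shares of 27% and 29.6%.

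Of 13 tested genes for cholesterol supply, 8 fell and 2 rose, with a median of -0.37. Npc1, which exports cholesterol from lysosomes, fell to 3.64 ± 0.0798 FPKM in differentiation, against 7.46 ± 0.0300 FPKM in control (SD, n = 2 each; log2 fold change -0.87, limma adjusted p = 0.000778). Scarb1, the receptor for HDL, and Npc2 and Stard3, which act in endosomal cholesterol export, fell by 0.46, 0.47 and 0.43 on the log2 scale. The 2 that rose were Lipe, the hormone-sensitive lipase, and Soat1, which esterifies cholesterol, by 0.40 and 0.17, and both were named after their values were seen. Without differentiation replicate 1, 0 genes of this list were called higher, and without differentiation replicate 2, control replicate 1 or control replicate 2, 1 was.

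Among the electron donors of steroidogenic P450 enzymes, 3 of 6 tested members fell and 2 rose, with a median of -0.15; the number that rose is near the 29.6% of all tested features called higher. Fdxr, the reductase that feeds ferredoxin, fell to 2.65 ± 0.387 FPKM in differentiation, against 4.73 ± 0.317 FPKM in control (SD, n = 2 each; log2 fold change -0.65, limma adjusted p = 0.00969), and its call was lost without control replicate 2 (limma adjusted p = 0.052). Por, the reductase of microsomal P450 enzymes such as CYP17A1, and H6pd, which supplies NADPH in the endoplasmic reticulum, had log2 fold changes of -0.23 and -0.57, and that of Por was -0.37 after quantile normalization. Both cytochrome b5 genes tested rose, Cyb5b by 0.74 and Cyb5a, which aids the lyase step of CYP17A1, by 0.41.

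Of 12 other steroid-converting enzymes tested, 5 fell and 3 rose, with a median of -0.39, and 9 of the 27 listed genes were not analysed here. The number that rose is no more than the 29.6% of all tested features called higher. Hsd17b12 and Hsd17b7, which also act in fatty acid elongation and cholesterol synthesis, had log2 fold changes of -0.50 and -0.66. Akr1b7, an aldo-keto reductase of steroidogenic tissues, and Srd5a1, a steroid 5-alpha-reductase, fell by 1.08 and 0.69. Akr1b7 was at 0.264 and 0.383 FPKM in the differentiation libraries, against 1.97 and 1.63 FPKM in the control libraries. Srd5a1 was at 0.716 and 0.844 FPKM in differentiation, against 1.84 and 1.91 FPKM in control. At such levels the pseudocount sets the size: with 0.1 the log2 fold changes were -2.17 for Akr1b7 and -1.17 for Srd5a1, and with limma-voom -2.43 and -1.28. Cyp11b2, aldosterone synthase of the adrenal cortex, was at 2.15 and 2.05 FPKM in the differentiation libraries, against 0.126 and 0.0298 FPKM in the control libraries. Both differentiation libraries were higher (log2 fold change 1.53, SE 0.10; limma adjusted p = 0.000838), and the log2 fold change was 3.68 with a pseudocount of 0.1 and 4.71 with limma-voom. Its neighbour and close relative Cyp11b1, the adrenal 11-beta-hydroxylase, rose to 3.39 ± 0.103 FPKM in differentiation, against 2.34 ± 0.0424 FPKM in control (SD, n = 2 each; limma adjusted p = 0.0158), and with Hsd17b1 it completed the 3 that rose; both were named after their values were seen. Cyp21a1, the adrenal 21-hydroxylase, was at 0.552 and 0.390 FPKM in differentiation and 0.168 and 0.317 FPKM in control. Aromatase, Cyp19a1, was at 0.448 and 0.424 FPKM in differentiation and 0.0682 and 0 FPKM in control, under the minimum for testing. With 3 called higher in all 4 libraries, 1 was called higher without differentiation replicate 1, control replicate 1 or control replicate 2, and 2 without differentiation replicate 2.

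Of 16 tested transcription factors known from steroidogenic cells, 10 fell and 4 rose, with a median of -0.59. The share of the list that rose is no more than the 29.6% of all tested features called higher. Nr4a1, an immediate-early nuclear receptor that luteinizing hormone induces in Leydig cells, was at 3.98 and 3.69 FPKM in the differentiation libraries, against 23.9 and 23.2 FPKM in the control libraries. The groups were far apart (log2 fold change -2.34, SE 0.05; limma adjusted p = 0.000109). Tcf21, a factor of interstitial progenitors, and the macrophage and mesenchymal factor Maf fell by 1.44 and 1.31, and Cebpb by 0.73. With a pseudocount of 0.1 the log2 fold changes of Tcf21 and Maf were -2.33 and -2.21, and with limma-voom -2.53 and -2.44. Of the list's 4 increases, Wt1, a Sertoli cell factor that is also in the Sertoli list, rose by 0.58. Called increases numbered 2 without differentiation replicate 1, control replicate 1 or control replicate 2, and 2 after quantile normalization.

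In the list of luteinizing hormone receptor and cyclic AMP signalling, 9 of 14 tested members fell and 2 rose, with a median of -0.25. Akap1, which anchors protein kinase A at mitochondria, fell to 6.26 ± 0.370 FPKM in differentiation, against 20.9 ± 0.745 FPKM in control (SD, n = 2 each; log2 fold change -1.60, limma adjusted p = 0.000203). The stimulatory G protein gene Gnas, the adenylyl cyclase Adcy7 and the kinase subunit Prkar2a fell by 0.38, 0.68 and 0.31. Pde8a, a phosphodiesterase that breaks down cyclic AMP and restrains steroidogenesis in Leydig cells, rose to 24.6 ± 0.911 FPKM in differentiation, against 10.01 ± 0.199 FPKM in control (SD, n = 2 each; log2 fold change 1.22, limma adjusted p = 0.000199). Without control replicate 1 or without control replicate 2, 5 of these genes were called lower, and without differentiation replicate 2 or control replicate 1, and after median centring, 1 was called higher.

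INSL3 itself is the Leydig cell peptide that guides testis descent through its receptor RXFP2. Rxfp2 was under the minimum for testing, at 0.277 and 0.276 FPKM in the differentiation libraries, against 0.0271 and 0.0426 FPKM in the control libraries. Of the 2 tested genes in that list, Insl6, a relative made by male germ cells, was at 7.15 and 9.57 FPKM in differentiation, against 0.435 and 0.410 FPKM in control (log2 fold change 2.71, SE 0.15; limma adjusted p = 0.000542; 4.17 on the log2 scale with limma-voom). Insl5 had a log2 fold change of 0.40 and did not pass (limma adjusted p = 0.192), although 2 genes of the list were called higher without differentiation replicate 2. Its log2 fold change was 0.68 then and 0.12 without differentiation replicate 1, and 0.78 both with a pseudocount of 0.1 and with limma-voom.

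Of 13 further Leydig cell markers tested, 9 fell and 1 rose, with a median of -0.83. Dlk1, a marker of fetal and immature Leydig cells that stromal cells also express, was at 0.985 and 0.582 FPKM in the differentiation libraries, against 11.7 and 11.1 FPKM in the control libraries. The groups did not overlap (log2 fold change -2.81, SE 0.13; limma adjusted p = 0.000379). Gstm2 and Aldh1a1, detoxifying enzymes, and the growth factor gene Igf1 fell by 1.18, 0.84 and 1.43, and Pdgfra, also in the fibroblast list, by 0.83. The log2 fold change of Igf1 was -2.34 with a pseudocount of 0.1 and -2.55 with limma-voom. The 1 that rose, Mgst1, was at 25.4 and 23.1 FPKM in differentiation, against 18.1 and 17.7 FPKM in control. Its log2 fold change was 0.41 (limma adjusted p = 0.00511). Hpgds, Timp4 and Pcsk6 were not called, and these and Mgst1 were named after their values were seen.

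**Figure D5:**
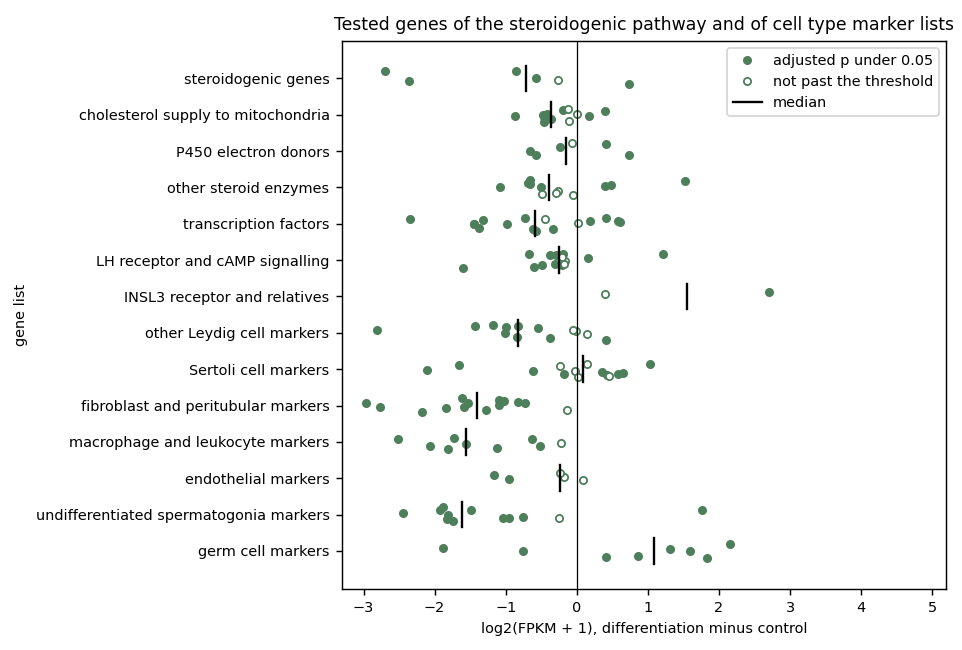
Log2(FPKM + 1) difference, differentiation minus control, for each tested gene (points, filled where the limma adjusted p was under 0.05) of the steroidogenic genes, the 7 pathway lists and the 6 marker lists, with the list median as a line. Medians of the fibroblast, macrophage and undifferentiated spermatogonia lists, -1.41, -1.55 and -1.61, lie below that of the 6 steroidogenic genes, -0.72, while the endothelial, Sertoli and germ cell medians, -0.23, 0.08 and 1.08, lie above it.

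Markers of other cells moved in the same libraries. Of 14 fibroblast and peritubular markers tested, 13 fell and 0 rose (median -1.41), with a summed level of 132 to 141 FPKM in differentiation and 432 to 434 FPKM in control. Of 9 macrophage and leukocyte markers, 8 fell and 0 rose (median -1.55), with sums of 17.97 to 18.4 FPKM in differentiation and 68.1 to 71.8 FPKM in control. Endothelial markers fell in 2 of 5, Cdh5 and Eng, and 0 rose. The sums were 8.81 to 9.19 FPKM in differentiation and 17.0 to 17.0 FPKM in control. Most of that difference lay in Cdh5, at 2.96 and 3.20 FPKM in differentiation and 8.15 and 8.17 FPKM in control. Kdr, Tek and Pecam1 were not called, and Pecam1 was slightly higher in both differentiation libraries. The Sertoli list went both ways, with 4 of 14 lower and 5 higher and sums of 193 to 205 FPKM in differentiation and 216 to 221 FPKM in control. These counts are near the 27% and 29.6% of all tested features called lower and higher. The order of the sums rests on Dmrt1, which spermatogonia also express, at 11.0 and 11.0 FPKM in differentiation and 50.6 and 51.2 FPKM in control: without it, a choice made after seeing the data, they were 182 to 194 FPKM in differentiation and 165 to 169 FPKM in control. Every feature in the table was above 0 in some library, so the presence of a marker there says little. The part of these 4 lists in the changes of the steroidogenic genes was not tested.

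The labelled cell type was set beside its markers. Zbtb16, a factor of undifferentiated spermatogonia, was at 3.78 and 3.92 FPKM in the differentiation libraries and 25.4 and 25.4 FPKM in the control libraries. Of 12 markers of undifferentiated spermatogonia 10 fell, and 1, Id4, rose by 1.76. The remaining 1, Nanos2, was not called and was low throughout, at 0.360 and 0.566 FPKM in differentiation and 0.756 and 0.713 FPKM in control. Of 8 general, differentiating and meiotic germ cell markers 6 rose, the meiotic genes Hormad1 and Sycp3 among them by 2.15 and 1.60. The other 2 fell: Kit, the receptor of differentiating spermatogonia, by 1.88, and Stra8, which acts at meiotic entry, by 0.76. Genes of this list were also high in control. There, Stra8 was at 241 and 233 FPKM, Tex101 at 72.3 and 70.1 FPKM and Sycp3 at 48.4 and 49.2 FPKM. Kit was at 30.4 and 31.6 FPKM and Hormad1 at 30.0 and 29.0 FPKM in control, so each of these lay above Zbtb16. Features with ribosomal-RNA-like sequence took 18.3% and 17.7% of the fragments in differentiation and 22.6% and 20.8% in control.

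The features whose pattern over the 4 libraries lay nearest to that of Cyp11a1 were Nr4a1, the beta-globin gene Hbb-bs, Nrep, Gpnmb and Gpc3. Their distances, the Euclidean distance of centred log2(FPKM + 1) values, were 0.0310, 0.0478, 0.0737, 0.0771 and 0.0887. Hbb-bs, a red blood cell gene, was at 86.7 and 76.0 FPKM in the differentiation libraries, against 421 and 408 FPKM in the control libraries. Nearest to Star were Ttc39b, the antisense RNA gene Gm29434, Hacd3, Kbtbd7 and Btf3l4, at distances of 0.00969, 0.0112, 0.0147, 0.0155 and 0.0167. Libraries of a group lay close together for these genes, so this distance mostly sorts features by their fold change. The log2 fold changes were -2.36 to -2.28 beside -2.35 for Cyp11a1, and 0.72 to 0.74 beside 0.73 for Star.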

How the data were processed

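RNA of 2 differentiation and 2 control libraries was measured after TRIzol extraction and ribosomal RNA depletion, per the labels' protocols. The submitters' processing notes name HISAT2 and GRCm38; the sources used here give no counting tool, annotation or strand setting. The authors deposited FPKM per feature and library, with their own log2 fold change, p-value and adjusted p, for which the sources used here name no test.

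FPKM was multiplied by merged exonic lengths from GENCODE M21 (31536 of 31600 identifiers matched) and scaled per library until low values were whole: 96.2% of features under 300 fragments were whole within 0.05 in each library. For 815 features, Cyp17a1 (2168 in place of 2769 bases) and Lhcgr among them, the nearest length giving whole fragments was used.

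limma 3.58.1 in R 4.3.3 was fitted on log2(FPKM + 1), two-sided, with an intensity trend and group as the only term (2 residual and 2.14 prior degrees of freedom). A run on simulated data used a spread set beforehand, not taken from these libraries, and its outcome is not reported here. Other steps used matplotlib 3.10.9, biopython 1.88, scipy 1.17.1, pandas 2.3.3 and numpy 2.4.6 in Python 3.11.15. Alternatives changed the scaling, the pseudocount, the prior trend or the filter, or used a replicate block, limma-voom on fragments and leaving out each library. The text names the 10 genes, up to 5 tested genes with the smallest p in each pathway list and the 5 features nearest to Cyp11a1 and to Star at a mean of at least 1 FPKM; others are named as cell type markers, for overlapping loci or after their values were seen. Some genes that this rule names are not reported here. Genes and lists were chosen with earlier results of these data known.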

Additional observations from a re-analysis of the deposited data

How the results depend on the processing

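Cyp11a1, Hsd3b1, Star, Nr5a1 and Fdx1 kept their direction and their limma call under all 14 alternatives, with log2 fold changes between -2.79 and -2.29, -3.87 and -2.55, 0.61 and 0.78, -0.73 and -0.50, and -0.99 and -0.83. Cyp17a1 stayed negative under the 13 alternatives that gave it a value and passed under 3 of them; at a mean of at least 2 FPKM it was not tested. With 1 library left out, the genes called lower in the pathway lists numbered 33 to 36 and those called higher 9 to 12, beside 44 and 15 in all 4 libraries, while over all features 4474 to 4607 were called lower and 5011 to 5683 higher, beside 6246 and 6848; the single library of a group is then assumed to vary like the other group. The same replicate numbers do not mark a stated pairing, and deviations of same-numbered libraries had a correlation of -0.000408. A fit with the replicate block called 12298 of 23138 features in place of 13094, with Cyp11a1 at -2.35, Star at 0.73 and Cyp17a1 at -0.27, and called 4 steroidogenic genes lower and 1 higher, and 43 pathway genes lower and 14 higher. Scaling by median centring, quantile normalization or without ribosomal-RNA-like features moved the median of all features by -0.07, -0.10 and -0.05. Depth limits Hsd3b6, Hsd17b3 and Lhcgr most, with 8, 15 and 42 fragments in differentiation and 3, 11 and 78 in control.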
